A study of Mus musculus with 6 samples.

Results

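The genes described here are the D-type cyclins, their kinase partners CDK4 and CDK6, and the inhibitors of those kinases: Ccnd1, Ccnd2, Ccnd3, Cdk4, Cdk6, Cdkn1a, Cdkn1b, Cdkn1c, Cdkn2c and Cdkn2d. They were listed by symbol with earlier results of these arrays known, among them the difference in Ccnd1, so the values of Ccnd1 are a description and support nothing by themselves. Each gene's probeset was chosen by its mean level over all 6 arrays, the brightest among probesets with 1 gene symbol. By that rule 9 of the 10 listed genes were measured, out of 19938 genes on the array. Cdkn1a had no value of its own, since its probeset also carries the symbol of another gene. A choice between probesets arose for Cdkn1b alone, where the one taken had a mean log2 level of 8.10 and the other 7.61.

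Expression was measured on Affymetrix arrays in marrow cells of young adult wild-type FVB/nJ mice that lacked lineage markers and carried Kit and Sca-1. The control group, control_vector, received the lentivirus pCAD-IRES-GFP, and the other group, HLX_vector, received the same backbone with mouse HLX, each with 3 arrays. The labels write the HLX construct as pCAD-HLX-IRES-GFP in one place and pCAD-IRES-GFP-Hlx in another. Cells of both groups stayed 2 days in serum with mouse IL-3, IL-6 and SCF, with 8 µg/ml polybrene during infection, and were sorted for GFP before RNA was taken from 5000 to 10000 cells. Both groups are therefore cultured, cytokine-stimulated cells, and no freshly sorted cells were compared. Nothing in the labels ties the numbered replicates to separate mice or cultures, so each p-value reflects the scatter of these samples alone, which may be technical.

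D-type cyclins are made when growth factors signal to a cell. They bind and activate CDK4 or CDK6, and these kinases phosphorylate the retinoblastoma protein, which releases E2F factors to switch on genes for DNA synthesis. Inhibitors of the INK4 family, among them the products of Cdkn2c and Cdkn2d, bind CDK4 and CDK6 and keep the cyclin away, whereas those of the CIP/KIP family, the products of Cdkn1a, Cdkn1b and Cdkn1c, bind whole cyclin-CDK complexes and block CDK2. In haematopoietic stem cells Cdkn1c is known for its part in quiescence and Cdk6 for exit from it.

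The arrays had median log2 levels of 6.32 to 6.40 and correlated with one another at 0.980 to 0.987. Hlx was at log2 levels of 6.99, 7.29 and 7.62 in the control arrays and 10.75, 9.74 and 10.28 in the HLX arrays. Kit, the stem cell factor receptor used in the sort, lay between 9.20 and 9.59 and Cd34 between 10.72 and 11.36. Slamf1, from the same list of the sorted population, was weak, at 4.85 to 5.68. Of 6 measured genes of that list 5 had lower means with the HLX vector, at a median log2 difference of -0.13, and Kit was higher. Their summed log2 levels were 53.4 to 54.2 in the control arrays and 52.0 to 53.6 in the HLX arrays. Over all genes 47.5% were above 0. Ly6a, the gene of Sca-1, was not analysed here for want of a probeset with 1 symbol. In these bulk samples, fewer cells of a type and less RNA per cell cannot be told apart.

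Of the 3 D cyclins, Ccnd1 was higher with the HLX vector in every array, and the group means of Ccnd2 and Ccnd3 differed by at most 0.15 log2 units. Ccnd1 was at log2 levels of 8.14, 8.04 and 8.43 in control replicates 1 to 3 and at 9.15, 9.38 and 9.10 in HLX replicates 1 to 3. The groups did not overlap, with a gap of 1.59-fold between the highest control and the lowest HLX array. The difference was 2.01-fold (log2 1.01 ± 0.14, SE, n = 3 per group; 95% interval from limma 1.61-fold to 2.50-fold). Among all genes 18 had a larger difference upward and 4 had a smaller unadjusted p, yet the adjusted p from limma was 0.470, so Ccnd1 was not called.

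Within the HLX arrays the level of Ccnd1 did not follow that of Hlx. Replicate 1 had the highest Hlx level and a middle Ccnd1 level, and replicate 2 had the lowest Hlx level and the highest Ccnd1 level. With 3 arrays no relation can be tested.

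Ccnd2, the gene of cyclin D2, was at log2 levels of 10.60, 10.43 and 10.84 in the control arrays and 10.37, 10.57 and 10.49 in the HLX arrays. The groups overlapped, with the highest and the lowest value of all 6 in control replicate 3 and HLX replicate 1. Its log2 difference was -0.15 ± 0.13 (SE, n = 3 per group), and the 95% interval from limma ran from 0.733-fold to 1.11-fold, so a doubling like that of Ccnd1 lay outside it. The adjusted p from limma was 1.0.

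Ccnd3, the gene of cyclin D3, had the smallest SD within groups of the 9 genes, at 0.063 over both groups. Its log2 levels were 7.96, 7.88 and 7.90 with the control vector and 7.96, 7.96 and 8.10 with the HLX vector. The groups were apart by only 0.0010 log2 units, between control replicate 1 and HLX replicate 1, and they overlapped once the arrays were renormalized by cyclic loess or by quantiles. The log2 difference was 0.093 ± 0.092 (SE, n = 3 per group; 95% interval from limma 0.919-fold to 1.24-fold).

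**Figure D1:**
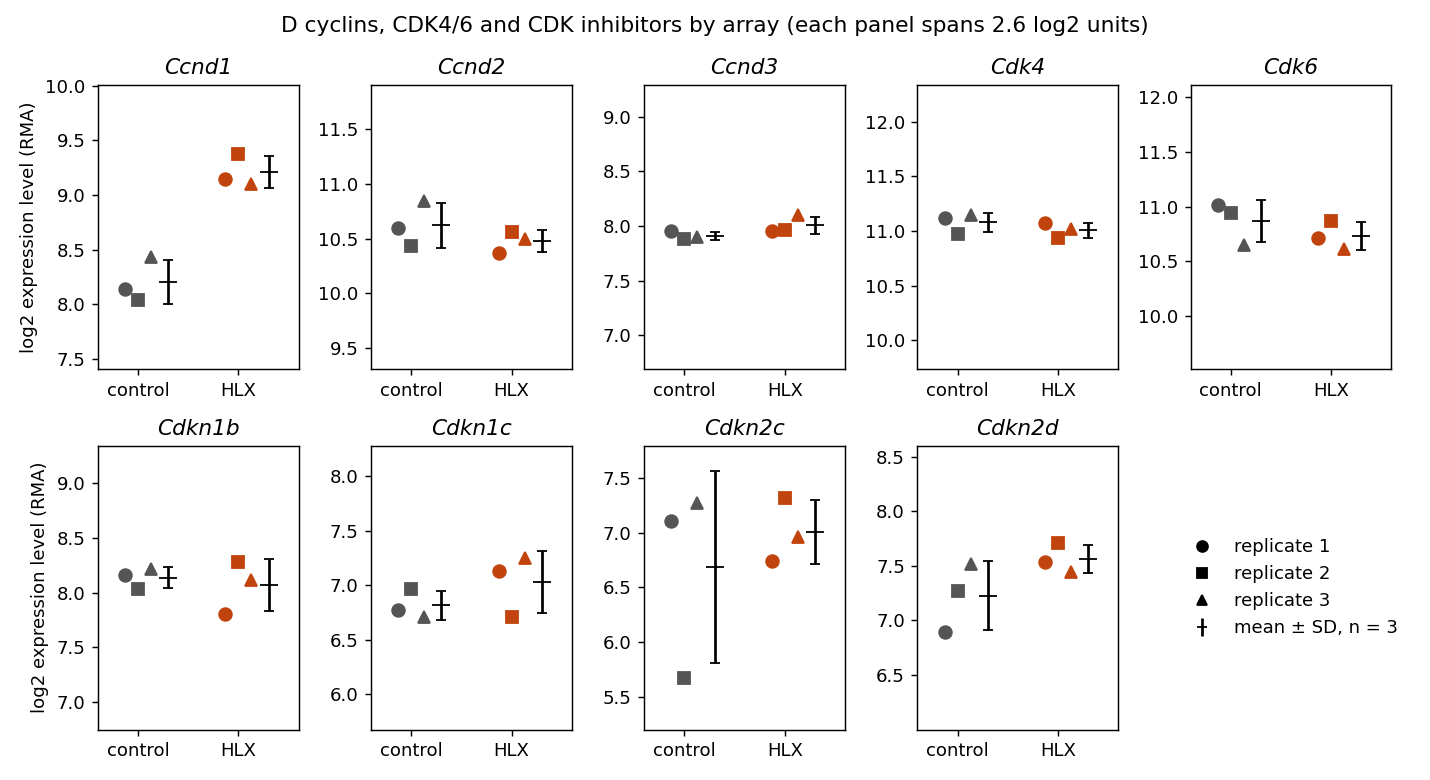
Log2 expression level (vertical axis) of the 9 measured genes in each array, control vector in grey and HLX vector in orange, with the mean ± SD of 3 arrays beside the points; the symbol shape gives the replicate number. The 3 HLX arrays of Ccnd1, at 9.10 to 9.38, all lie above its control arrays, at 8.04 to 8.43, and control replicate 2 of Cdkn2c lies far below the other 5 arrays.

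Neither kinase partner differed between the vectors beyond the spread of its arrays. Cdk4 was at log2 levels of 11.12, 10.98 and 11.14 in the control arrays and 11.07, 10.93 and 11.02 in the HLX arrays, a log2 difference of -0.074 ± 0.096 (SE, n = 3 per group). Cdk6 was at 11.01, 10.94 and 10.65 in the control arrays and 10.71, 10.87 and 10.61 in the HLX arrays, a log2 difference of -0.14 ± 0.13. Both pairs of groups overlapped. The 95% intervals from limma reached from 0.813-fold to 1.11-fold for Cdk4 and from 0.738-fold to 1.12-fold for Cdk6.

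The CIP/KIP genes with a value of their own were Cdkn1b and Cdkn1c. Cdkn1b, which encodes KIP1, a brake on CDK2 that is lost as cells enter the cycle, was at log2 levels of 8.16, 8.04 and 8.22 in the control arrays and 7.81, 8.28 and 8.12 in the HLX arrays. HLX replicates 1 and 2 were the lowest and the highest of all 6 arrays, so the HLX group enclosed the control group. The log2 difference of -0.068 ± 0.14 (SE, n = 3 per group) turned to 0.063 without HLX replicate 1. The second probeset of Cdkn1b gave 7.67, 7.99 and 7.59 with the control vector and 7.45, 7.61 and 7.36 with the HLX vector, a log2 difference of -0.28 with overlapping groups.

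Cdkn1c, which encodes KIP2, was at log2 levels of 6.77, 6.97 and 6.71 in the control arrays and 7.13, 6.71 and 7.25 in the HLX arrays. HLX replicates 1 and 3 lay above all control arrays, and HLX replicate 2 was level with the lowest of them. The log2 difference was 0.21 ± 0.16 (SE, n = 3 per group; 95% interval from limma 0.897-fold to 1.50-fold). With 1 array left out it ranged from 0.10 without HLX replicate 3, at an unadjusted p from limma of 0.535, to 0.37 without HLX replicate 2, at an unadjusted p of 0.0220 and an adjusted p of 0.974.

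Of the INK4 genes, Cdkn2d had a higher mean with the HLX vector in every fit, Cdkn2c only in fits that kept control replicate 2, and neither was called. Cdkn2d, which encodes INK4D, was at log2 levels of 6.89, 7.27 and 7.52 in the control arrays and 7.53, 7.71 and 7.45 in the HLX arrays. Only control replicate 3 reached the range of the HLX arrays. The log2 difference was 0.33 ± 0.17 (SE, n = 3 per group; 95% interval from limma 0.961-fold to 1.66-fold), at an unadjusted p from limma of 0.0834. It ranged from 0.17 without control replicate 1 to 0.48 without control replicate 3, where the unadjusted p was 0.0209 and the adjusted p 1.0.

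For Cdkn2c, which encodes INK4C, the direction rested on 1 array. Its log2 levels were 7.11, 5.67 and 7.27 in the control arrays and 6.74, 7.32 and 6.96 in the HLX arrays. Control replicate 2 lay 1.06 log2 units below the next lowest array, and the control SD of 0.88 was the widest of the 9 genes. The log2 difference of 0.32 ± 0.40 (SE, n = 3 per group) turned to -0.18 without that array. For this gene the 95% interval from limma, from 0.648-fold to 2.41-fold, does not leave out a doubling.

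**Figure D2:**
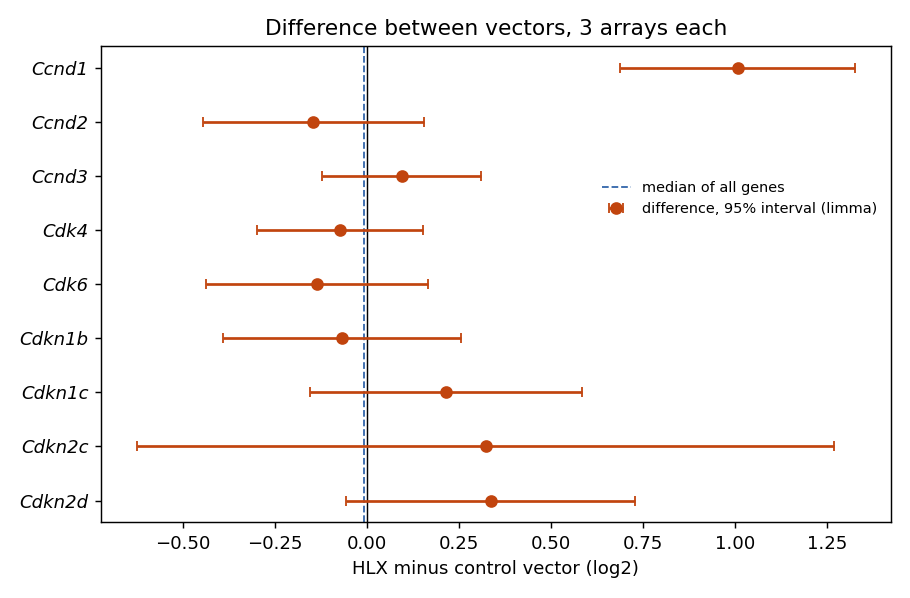
Log2 difference, HLX minus control vector (horizontal axis), of the 9 measured genes with its 95% interval from limma, 3 arrays per group; the dashed line is the median of all 19938 genes, at -0.0078. The interval of Ccnd1, from 0.69 to 1.32, is the only one of the 9 that leaves out 0, and that of Cdkn2c is the widest.

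The log2 differences of the 9 genes had a median of 0.093, against -0.0078 over all genes, and without Ccnd1 the median of the remaining 8 was 0.013, with 4 above 0 and 4 below. No gene was called at an adjusted p under 0.05, neither among the 9 nor on the whole array, where the share called was 0%. At an unadjusted p under 0.05 stood 1 of the 9, Ccnd1, beside 4.80% of all genes (958). The groups did not overlap in 2 of the 9, Ccnd1 and Ccnd3, beside 9.19% of all genes (1833). The median absolute log2 difference was 0.14 for the 8 genes without Ccnd1 and 0.090 for all genes.

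These counts of the 9 genes moved when arrays were left out. Those at an unadjusted p under 0.05 became 2 without control replicate 3, with Cdkn2d added, and 2 without HLX replicate 2, with Cdkn1c added. Those without overlap became 4 without control replicate 2 or 3, where the share over all genes was also larger, at 16.7% and 17.2%, and 3 without HLX replicate 2 or 3, with 18.4% and 24.1% of all genes. The count was 1, Ccnd1, once the arrays were renormalized by cyclic loess or by quantiles.

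To relate the cyclins to their partners, the log2 ratio of one gene to another was taken within each array and set against its mean in the control arrays, because levels of different probesets cannot be compared directly. Such a ratio shows unequal change only. Ccnd1 relative to Ccnd2 was at -0.039, 0.029 and 0.010 in the control arrays and at 1.20, 1.23 and 1.03 in the HLX arrays. The ratio thus differed by 1.15 on the log2 scale, or 2.22-fold. Its SD among the control arrays, 0.035, was smaller than that of Ccnd1 (0.20) or Ccnd2 (0.21), since both genes were highest in control replicate 3 and lowest in control replicate 2. Ccnd1 relative to Ccnd3 differed by 0.91, with the HLX arrays at 0.90, 1.12 and 0.71 and the control arrays at -0.11, -0.14 and 0.24.

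Relative to its kinases, as the mean of Cdk4 and Cdk6, Ccnd1 was at -0.16, -0.15 and 0.31 in the control arrays and at 1.03, 1.25 and 1.06 in the HLX arrays, a difference of 1.11. Relative to the mean of Cdkn1b and Cdkn1c it differed by 0.93, and relative to the mean of the INK4 genes Cdkn2c and Cdkn2d by 0.68. The HLX arrays lay above all control arrays in each of these ratios. Against single kinases and inhibitors, 6 in all, the difference ran from 0.67 for Cdkn2d to 1.14 for Cdk6. The groups were apart in 5 of them and overlapped for Cdkn2c, where control replicate 2 stood at 0.85 and HLX replicate 2 at 0.54. All of these ratios share Ccnd1, so they repeat 1 measurement and are no separate results, and no test was made on them.

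The ratios of Ccnd2 and Ccnd3 were closer to 0. Ccnd2 relative to the kinases differed by -0.042, with overlapping groups and a range of -0.13 to 0.11 with 1 array left out. It was above 0 without control replicate 3 or HLX replicate 1. Relative to the INK4 genes Ccnd2 differed by -0.48. The HLX arrays, at -0.43, -0.62 and -0.38, lay below the control arrays, at -0.070, 0.29 and -0.22. Without control replicate 2, the array that was low in Cdkn2c, the difference was -0.33. Ccnd3 relative to the INK4 genes differed by -0.235 with overlapping groups, and by -0.0077 without that array. Ccnd3 relative to the kinases differed by 0.20, with the HLX arrays at 0.13, 0.12 and 0.35 above the control arrays at -0.049, -0.013 and 0.062. Against Cdk4 alone it differed by 0.17 and against Cdk6 alone by 0.23, and the groups overlapped in both. Relative to the CIP/KIP genes Ccnd3 differed by 0.021, and Ccnd2 by -0.22, both with overlapping groups, and the first was -0.0056 at its lowest with 1 array left out.

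**Figure D3:**
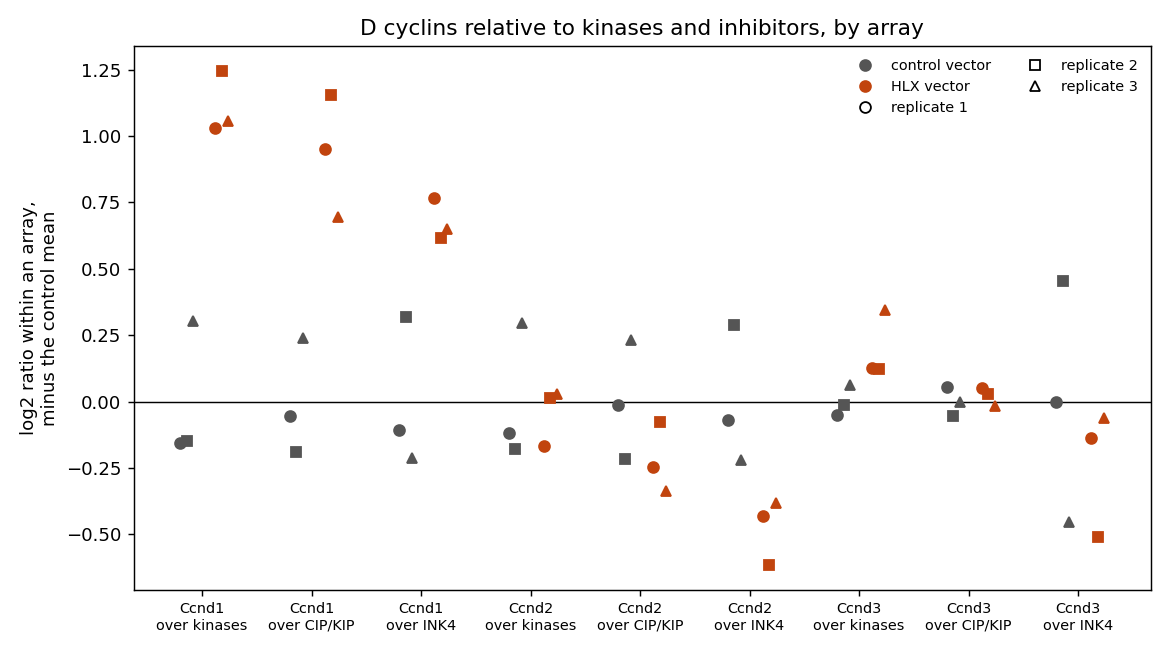
Log2 ratio within an array, minus its mean in the control arrays (vertical axis), of each D cyclin over the mean of Cdk4 and Cdk6 (kinases), of Cdkn1b and Cdkn1c (CIP/KIP) and of Cdkn2c and Cdkn2d (INK4); each point is 1 array and the symbol shape gives its replicate number. For Ccnd1 the HLX arrays lie at 0.62 to 1.25 and the control arrays at or below 0.32, while for Ccnd2 and Ccnd3 all points lie between -0.62 and 0.45.

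Further genes of the pathway were taken from 8 lists, some of which share genes. They held 99 genes, of which 95 were measured. None was called at the adjusted threshold, the smallest adjusted p from limma being 0.932. At an unadjusted p under 0.05 stood 5 of the 95 (5.26%), all higher with the HLX vector, beside 4.80% of all genes. The groups did not overlap in 13 (10 higher, 3 lower), which is 13.7% beside 9.19% of all genes. The median log2 difference of the 95 was 0.051, with 58 above 0 (61.1%), beside 47.5% of all genes. The counts above 0 given below for single lists stand beside the same 47.5%.

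Downstream of the D cyclins, the median log2 difference of 13 pocket protein and E2F genes was 0.13, and 8 lay above 0. With 1 array left out the median was 0.026 without control replicate 2, 0.12 without control replicate 3 and 0.047 to 0.068 without any of the others. E2f6, an E2F that represses its targets without binding the retinoblastoma protein, was the only one at an unadjusted p under 0.05. Its log2 levels were 8.05, 7.93 and 8.09 in the control arrays and 8.20, 8.74 and 8.78 in the HLX arrays, a difference of 0.55 ± 0.17 (SE, n = 3 per group; adjusted p from limma 0.932). Rb1, the retinoblastoma gene, was at a difference of 0.016 ± 0.10. The 17 measured E2F target genes had a median of 0.051, 12 of them above 0 and 0 at an unadjusted p under 0.05, and the median ranged from 0.0076 without control replicate 2 to 0.083 without HLX replicate 3. The nearest was Mcm5, a subunit of the replicative helicase, at 0.19 ± 0.089.

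In the engine that follows, cyclins E and A with CDK2, 7 of 9 genes were above 0 (77.8%), beside 47.5% of all genes. The median was 0.13, and 0.11 to 0.17 with 1 array left out. Only Cdk2 stood at an unadjusted p under 0.05. Cdk2, the kinase that takes over after CDK4 and CDK6, was at log2 levels of 8.63, 8.27 and 8.48 in the control arrays and 9.14, 8.70 and 8.77 in the HLX arrays. The groups did not overlap, and the difference was 0.41 ± 0.15 (SE, n = 3 per group; adjusted p from limma 0.989). It stayed above 0 with any single array left out, at 0.28 to 0.50, but its unadjusted p from limma was 0.0951 without control replicate 2, 0.0572 without control replicate 3 and 0.0878 without HLX replicate 1.

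Among 11 genes for the breakdown of CIP/KIP proteins and D cyclins, Cul1, the scaffold of the ubiquitin ligase that removes the KIP1 protein, was the only one at an unadjusted p under 0.05. It was at log2 levels of 9.24, 9.21 and 9.05 with the control vector and 9.37, 9.61 and 9.59 with the HLX vector, a difference of 0.36 ± 0.11 (SE, n = 3 per group; adjusted p from limma 0.932). Its unadjusted p was 0.0527 without control replicate 3. The median of that list was 0.010, and -0.027 without control replicate 2. In the list of the other INK4 and p53 branch genes, 5 were measured and 0 stood at an unadjusted p under 0.05, the nearest being Mdm2, the ubiquitin ligase of p53, at 0.18 ± 0.17. Cdkn2a and Cdkn2b, the remaining INK4 genes, were at -0.075 ± 0.089 and -0.083 ± 0.15.

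The median of 22 other cyclin and CDK genes was 0.11, with 13 above 0, and it was 0.030 without control replicate 2 and 0.036 without HLX replicate 1. Ccny and Cdk9 stood at an unadjusted p under 0.05. Ccny, the gene of cyclin Y, was at a difference of 0.36 ± 0.11 (SE, n = 3 per group), with an unadjusted p from limma of 0.0501 without control replicate 1 and 0.0559 without control replicate 3. Cdk9, the kinase of the elongation factor P-TEFb, was at 0.63 ± 0.25, with control replicate 2 at 7.70 against 8.57 and 8.59 in the other control arrays, and at 0.33 without that array. Its unadjusted p from limma was above 0.05 without control replicate 2 or any 1 of the HLX arrays, at 0.0554 to 0.123. The groups did not overlap in 6 of the 22 genes (27.3%; 5 higher, 1 lower), beside 9.19% of all genes. The lower one was Ccnt1, at -0.45 ± 0.23, the other way from Cdk9. Genes for mitogen and FOXO signals, 19 in all, had a median of 0.0087 (-0.030 to 0.049 with 1 array left out), with 10 above 0 and 0 at an unadjusted p under 0.05, the nearest being Klf4, a factor that restrains the cycle, at -0.20 ± 0.10. Cdc37, a chaperone that loads CDK4 onto HSP90, was at -0.24 ± 0.13.

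**Figure D4:**
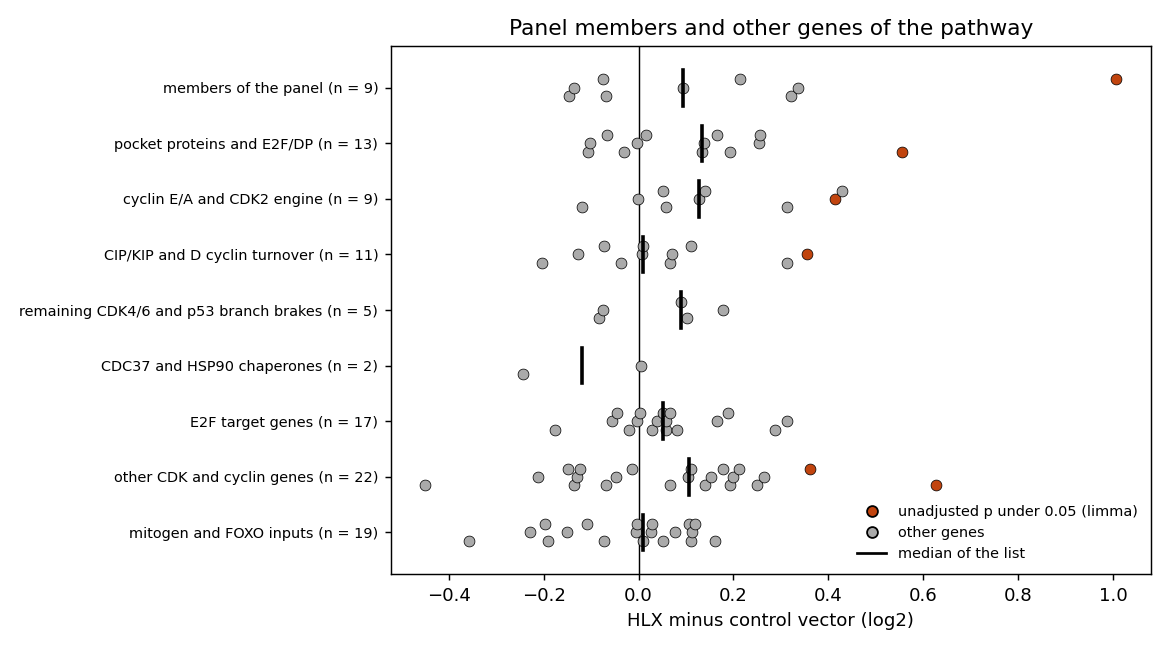
Log2 difference, HLX minus control vector (horizontal axis), of the 9 measured genes described here (members of the panel) and of the genes of 8 pathway lists; each point is a gene, orange where its unadjusted p from limma was under 0.05, and the bar is the median of the list. Ccnd1, at 1.01, lies to the right of all 95 list genes, the highest of which, Cdk9, is at 0.63.

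Likeness of pattern was measured by Pearson's r over the 6 arrays as a description, among 9435 genes whose mean level exceeded the median gene's, leaving out predicted genes, clones, small RNAs, pseudogenes and olfactory and vomeronasal receptors. The 3 genes most like Ccnd1 were Ccdc88b (r = 0.997), Pdia3 (r = 0.989) and Wwp2 (r = 0.989), with log2 differences between vectors of 0.37, 0.22 and 0.29, none of them called. Those most like Ccnd2 were Sting1, Ppcdc and Csnk1g1 (r = 0.991, 0.988 and 0.985), and those most like Ccnd3 were Sharpin, Pomgnt2 and Fam219a (r = 0.997, 0.992 and 0.990). Of the 9435 genes, 86 reached an r above 0.9 with Ccnd1, 42 with Ccnd2 and 81 with Ccnd3. With 6 arrays in 2 groups many genes reach a high r, so shared regulation cannot be read from it.

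Some markers of myeloid cells also had different means between the vectors. Of 6 measured granulocyte and monocyte markers 4 had higher means with the HLX vector, with summed log2 levels of 39.1 to 40.0 in the control arrays and 39.4 to 42.5 in the HLX arrays. Itgam, an integrin of mature myeloid cells, was at a log2 difference of 0.89 ± 0.22, Lyz2, the gene of lysozyme, at 0.70 ± 0.13 and Csf1r, the receptor of macrophage colony-stimulating factor, at 1.36 ± 0.53 (SE, n = 3 per group). The groups did not overlap in these 3 genes, nor in Ly6g, a surface marker of granulocytes, which lay the other way at -0.15 ± 0.095. Over all genes the share without overlap was 9.19%. For Csf1r the groups barely parted, with control replicate 2 at 6.48 and HLX replicate 1 at 6.49. HLX replicates 2 and 3 were at 7.80 and 8.92. Ly6g was weak in every array, at 4.69 to 4.96. Mpo, the myeloperoxidase gene of early granulocyte precursors, was at -1.16 ± 0.38, and Flt3, a receptor of multipotent and lymphoid progenitors, at -0.68 ± 0.16. Among the T cell, B cell, erythroid, megakaryocyte, stromal and endothelial markers, Cd79b (-0.63 ± 0.21) and Gata1 (0.27 ± 0.11) alone stood at an unadjusted p under 0.05. Over all genes that share was 4.80%. The other measured erythroid markers, Klf1 (-0.20 ± 0.13) and Epor (-0.067 ± 0.094), lay the other way from Gata1. Groups were apart in Gata1, which was higher with the HLX vector, and in Cd79b, Klf1, Cd8a and Lepr, all lower. Cd8a was at -0.12 ± 0.095 and Lepr, weak in every array at 4.28 to 4.51, was at -0.16 ± 0.091. None of the markers named was called, with adjusted p from limma of 0.824 to 1.0, and their part in the difference of Ccnd1 was not tested.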

How the data were processed

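The deposited values are log2 expression levels, which, per the submitters' processing notes, the authors made with RMA in Affymetrix Power Tools; RMA normalizes between arrays and compresses weak signals. The genome build was not given in the sources used here. Of 35556 probesets 21789 carried 1 symbol in the platform annotation, 1621 several and 12146 were unlisted; 21698 matched a RefSeq identifier (GRCm38.p6, names only). The brightest probeset by mean was kept per gene, with no filter on dim probesets. HLX was compared with control vector by limma 3.58.1 (lmFit, eBayes, 4 residual and 3.32 prior degrees of freedom) under R 4.3.3. Tests were 2-sided and adjusted by Benjamini-Hochberg over 19938 genes, with a threshold of 0.05; the SE is the moderated one. An adjusted p printed as 1.0 is rounded. The code was tested on simulated data. With 3 arrays per group, their number limits the precision.

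Members and lists were chosen with earlier results of these data known. Named are all members and the 3 genes most like each D cyclin. Of the list genes, those at an unadjusted p under 0.05 are named, otherwise the one with the smallest p. Rb1, Cdkn2a, Cdkn2b, Ccnt1 and the markers were named after their values were seen. Alternatives were a filter on dim probesets, other normalizations, another variance prior, array weights, the mean of a gene's probesets, a replicate block and each array left out; a fit on all 35556 probesets was added after seeing the data. Figures were drawn with matplotlib 3.10.9.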

Additional observations from a re-analysis of the deposited data

How the results depend on the processing

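Of the 9 genes, 7 kept the direction of their difference in every alternative run, and none was called at the adjusted threshold in any. Ccnd1 ranged from 0.92 to 1.12 on the log2 scale, with an adjusted p from limma of 0.328 to 0.835. With 1 array left out, Cdkn2c ranged from -0.18 (without control replicate 2) to 0.62, Cdkn1b from -0.17 to 0.063 (without HLX replicate 1) and the marker Kit from -0.016 (without control replicate 1) to 0.18. Over all genes the count at an adjusted p under 0.05 was 0 except with a trended and robust variance prior, where it was 1, Hlx (adjusted p from limma 0.0377). With the mean of a gene's probesets the ratio of Ccnd3 to the CIP/KIP genes differed by 0.073 in place of 0.021, since the second Cdkn1b probeset then enters. At an unadjusted p under 0.05 stood 606 genes among the 11050 above the median level of all probesets, against 958 of all, fewer genes being tested there. Among all genes at that p, centring the arrays on their medians turned the share of higher from 50.8% to 61.9%, and Ccnd1 was then at 1.03. Same-numbered arrays deviated together at correlations of 0.200, 0.0085 and 0.143, and differently numbered ones at -0.225 to 0.105. The values for replicates 1 and 3 were the highest of all, while control replicate 2 correlated best with HLX replicate 3, at 0.105. The numbers are not taken as pairs because the labels give no pairing, and a shared replicate effect was not tested. With the replicate block 1205 genes stood at an unadjusted p under 0.05 and Ccnd1 at an adjusted p of 0.652. No background signal was used, so how far the levels of Cdkn1c and Cdkn2c stand above background was not tested.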

Other observations

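The only probeset annotated to Cdkn1a, the CIP/KIP gene that p53 induces, also carries the symbol 4930567H12Rik, so its signal cannot be assigned to either gene and it entered no comparison above. Its log2 levels were 10.14, 10.01 and 10.14 in the control arrays and 9.83, 9.89 and 9.69 in the HLX arrays. All 3 HLX arrays lay below all control arrays, with means of 10.10 ± 0.078 and 9.80 ± 0.10 (SD, n = 3), a log2 difference of -0.30. Among all 35556 probesets the share without overlap, in either direction, was 9.07%.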
